A study of Oryctolagus cuniculus with 6 samples.

Results

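The miR-17/92 cluster and its paralog, the miR-106b/25 cluster, were followed in extracellular vesicles of rabbit seminal plasma through 10 mature strands: miR-17-5p, miR-18a-5p, miR-19a-3p, miR-19b-3p, miR-20a-5p and miR-92a-3p of the first cluster, and miR-106b-5p, miR-93-5p, miR-93-3p and miR-25-3p of the second. The strands were taken by name. All 10 were among the 577 mature miRNAs of the table, and 7 were high enough to be tested between groups. Sub-fertile libraries (n = 3) came from males with low semen quality and Fertile libraries (n = 3) from males with high semen quality. All animals were California x New Zealand white bucks, 10 to 12 months of age, with no treatment named in the labels. From 14 males with 8 ejaculates each, 3 were chosen per group. The groups were thus set by semen quality, and no record of fertility was used here. Each library was 1 biological replicate made from 2.5 mL of seminal plasma; whether a replicate was 1 male is not stated in the labels.

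MicroRNAs (miRNAs) are short RNAs that repress transcripts carrying a match to their seed, the bases near the 5′ end. A hairpin gives a 5p and a 3p strand, of which one is usually kept and the other discarded. The miR-17/92 hairpins are cut from 1 primary transcript that MYC and E2F factors activate in human and mouse cells. The miR-106b/25 hairpins lie in an intron of MCM7, a gene of the replicative helicase. In mice both clusters are expressed in spermatogonia, and miR-18a acts on HSF2, a heat shock factor of spermatogenesis. By seed the strands form 4 families. The miR-17 family (miR-17-5p, miR-20a-5p, miR-93-5p, miR-106b-5p) is known for repressing the cell cycle inhibitor CDKN1A and E2F1. The miR-18 family is represented by miR-18a-5p. The miR-19 family holds miR-19a-3p and miR-19b-3p. The miR-25/92a family (miR-25-3p, miR-92a-3p) is known for repressing the pro-apoptotic BCL2L11. miR-93-3p, the discarded strand of miR-93, stands outside these families.

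In the gene table of the rabbit assembly mOryCun1.1, used for neighbourhood alone, MIR17, MIR18A, MIR19A, MIR20A, MIR19B-1 and MIR92A-1 followed each other in this order with no other miRNA gene between them. MIR106B, MIR93 and MIR25 lay in this order within MCM7. A further paralog, MIR106A, MIR18B, MIR20B, MIR19B-2, MIR92A-2 and MIR363, holds second copies of the miR-19b and miR-92a genes. The values of miR-19b-3p and miR-92a-3p therefore cannot be assigned to 1 cluster. Members of the miR-17 family are similar in sequence, and likewise miR-18a and miR-18b or miR-19a and miR-19b. The rule that assigned reads among them was not given in the sources used here, so their separate values are uncertain.

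Libraries held between 129387 and 636929 recovered counts in the Sub-fertile group and between 453675 and 772619 in the Fertile group. Values are the deposited signal, a scaled CPM that sets each count against the depth of its library; 1 count was worth 6.24, 4.08 and 1.74 units in Sub-fertile replicates 1, 2 and 3, and between 1.33 and 2.32 units in Fertile libraries. A value of 0 allows up to 3 counts, or 18.7 units in Sub-fertile replicate 1 and 6.95 units in Fertile replicate 3, for counting error only. Sub-fertile replicate 1 was the shallowest library and stood apart from the others. All 5 miRNAs listed for male germ cells and ciliated cells were present, summing to 11670 to 22717 in Sub-fertile and 9339 to 11291 in Fertile libraries. Of these, miR-34c-5p was at 11502 in Sub-fertile replicate 1, against 1842 and 964 in replicates 2 and 3 of that group and 771.6 to 1131 in Fertile libraries. miR-449a-5p (3909) and miR-34b-5p (355.9) were highest in Sub-fertile replicate 1 too, while miR-508-3p was lowest there, at 6950 where the remaining libraries held 7610 to 13302, and miR-449b-5p had 1 count in all. The groups of miR-449a-5p did not overlap, at 617.7 to 3909 in Sub-fertile and 437.9 to 570.3 in Fertile libraries. The 4 epithelial miRNAs listed summed to 86798 to 139601 in Sub-fertile and 99993 to 107326 in Fertile libraries. miR-200c-3p and miR-141-3p were at 35812 or more in every library, miR-205-5p ran from 7056 to 15430 in Sub-fertile and from 11908 to 13096 in Fertile libraries, and the groups of miR-375-3p did not overlap (1393 to 3185 in Sub-fertile, 3320 to 3341 in Fertile). The part of these cell types in the results below was not tested; miR-200a-3p, miR-200b-3p and miR-429-3p were not analysed here. Erythrocytes are rich in miR-92a and miR-25 in other mammals. Of the erythroid miRNAs listed, miR-144-3p and miR-144-5p were at 0 in all 6 libraries. miR-451-5p stood at 3.48 to 6.24 in Sub-fertile and 1.33 to 7.79 in Fertile libraries. miR-486-5p was at 0, 16.3 and 8.70 in Sub-fertile and 10.7, 13.6 and 30.1 in Fertile replicates 1, 2 and 3. These 4 summed to 6.24 to 20.4 in Sub-fertile and 12.0 to 37.1 in Fertile libraries. The part of erythrocytes in the results below was not tested. All 5 leukocyte miRNAs (miR-223-3p, miR-142-3p, miR-142-5p, miR-150-5p, miR-155-5p) were present, summing to 323.6 to 699.4 in Sub-fertile and 251.9 to 595.5 in Fertile libraries. Only miR-142-3p had groups that did not overlap (53.1 to 156.1 in Sub-fertile, 32.0 to 51.0 in Fertile), where 25.6% of all tested did not. miR-223-3p ran from 95.7 to 298.2 in Sub-fertile and from 5.33 to 363.8 in Fertile libraries. The mean was lower in Sub-fertile vesicles for miR-150-5p alone (98.2 against 144.1).

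Nearly all of the signal came from 3 strands. The sum of the 10 strands was 17772, 17470 and 18321 in Sub-fertile replicates 1, 2 and 3, against 24951, 21414 and 19801 in Fertile replicates 1, 2 and 3. This sum was 1.87% ± 0.288 of the library in Sub-fertile and 2.12% ± 0.276 in Fertile vesicles (SD, n = 3 each). On the deposited scale the groups did not overlap, but as a share of each library they did. miR-92a-3p, miR-25-3p and miR-93-5p together made up 97.8% ± 0.678 of the sum in Sub-fertile and 98.5% ± 0.0685 in Fertile vesicles (SD, n = 3 each). The sum of the 10 is therefore mostly a reading of these 3 strands.

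**Figure D1:**
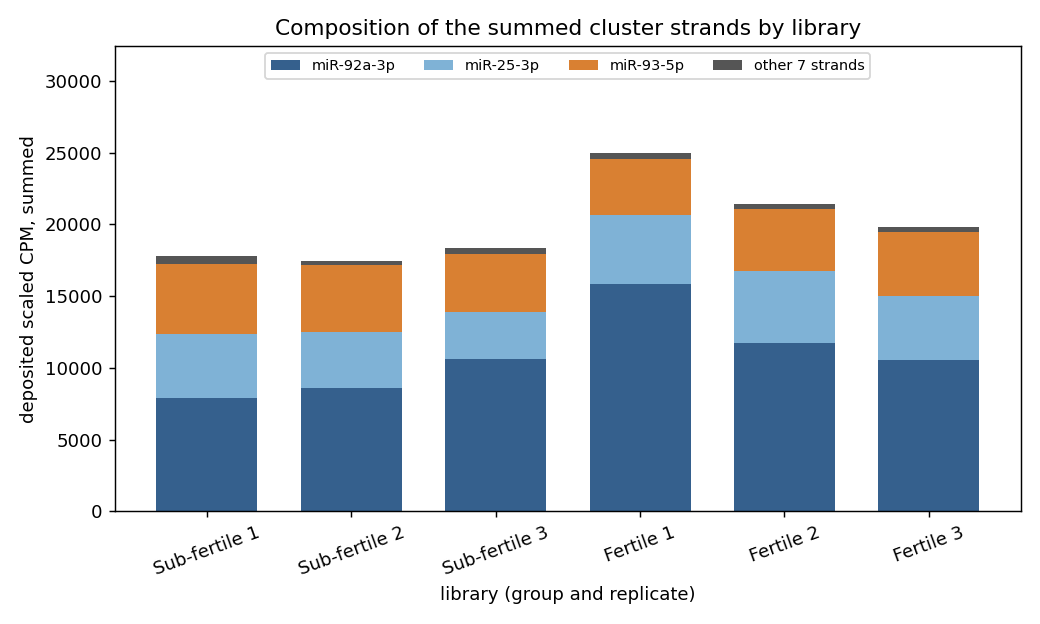
Stacked bars of the deposited scaled CPM of miR-92a-3p, miR-25-3p, miR-93-5p and the other 7 strands in each library, Sub-fertile left of Fertile. The bars reach 17470 to 18321 in Sub-fertile and 19801 to 24951 in Fertile libraries, and the other 7 strands are a thin cap on each.

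The order of the levels ran over more than 3 orders of magnitude. miR-92a-3p ranked 21 among the 577 rows by mean level, and its rank stayed between 19 and 24 in the 6 libraries. It exceeded miR-93-5p in 6 of 6 libraries, and the ranges of the 2 strands did not overlap. miR-93-5p (rank 34) and miR-25-3p (rank 35) could not be ordered: each was the higher one in 3 of 6 libraries. A gap of 22.1-fold in the mean separated miR-25-3p from miR-20a-5p (rank 111). Below it came miR-19b-3p (rank 139), miR-93-3p (184) and miR-17-5p (189). miR-20a-5p exceeded miR-19b-3p, and miR-19b-3p exceeded miR-93-3p, in 6 of 6 libraries each, although their ranges over libraries overlapped. miR-93-3p and miR-17-5p changed places between libraries. miR-18a-5p, miR-106b-5p and miR-19a-3p ranked 281, 301 and 302, with overlapping ranges. Ligation and amplification in small RNA libraries favour some sequences, so levels of different strands are apparent levels.

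**Figure D2:**
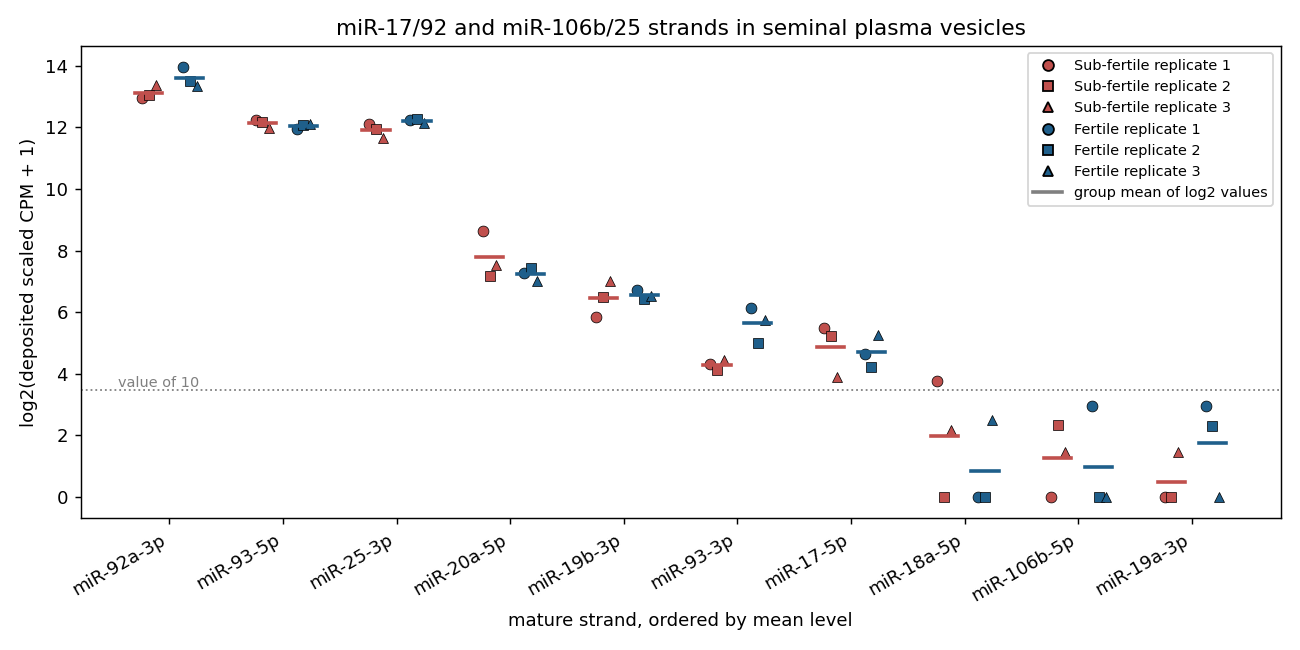
Points give log2(deposited scaled CPM + 1) of the 10 strands in each library, Sub-fertile left of Fertile, with a bar at the group mean of the log2 values; the dotted line marks a value of 10. The 3 highest strands lie far above the rest, and miR-18a-5p, miR-106b-5p and miR-19a-3p lie at or near 0.

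miR-92a-3p, an inhibitor of blood vessel growth in mice, is encoded by the last hairpin of miR-17/92 and by a second copy in another cluster. It was at 7893, 8589.7 and 10633 in Sub-fertile replicates 1, 2 and 3. Fertile replicates 1, 2 and 3 held 15841, 11754 and 10519. Sub-fertile replicate 3 lay just above Fertile replicate 3, so the groups overlapped on the deposited scale. Under plain CPM they did not overlap, with the Sub-fertile libraries lower, and under median-of-ratios scaling and quantile normalization they overlapped. The mean was 9039 ± 1424 in Sub-fertile and 12705 ± 2785 in Fertile vesicles (SD, n = 3 each). The log2 change was -0.48 (95% interval -0.96 to -0.00014), which did not pass (limma adjusted p = 0.26). Changes are Sub-fertile minus Fertile in log2(value + 1), a scale that makes the changes of low strands look smaller, and calls are at an adjusted p under 0.05. Without Fertile replicate 1, the highest library, the log2 change was -0.31 (limma adjusted p = 0.63). In vesicle RNA, fewer vesicles carrying a miRNA, fewer source cells and fewer copies per vesicle cannot be told apart.

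The other strand with this seed, miR-25-3p, was at 4452, 3925 and 3261 in Sub-fertile replicates 1, 2 and 3, against 4824, 5004 and 4518 in Fertile replicates 1, 2 and 3. Every Sub-fertile library lay below every Fertile one, though Sub-fertile replicate 1 by a small margin. Under plain CPM, median-of-ratios scaling and quantile normalization the groups overlapped. The log2 change of -0.31 (SE 0.18) did not pass (limma adjusted p = 0.42). Summed over the family, miR-25-3p and miR-92a-3p reached 12918 ± 849 in Sub-fertile and 17487 ± 2883 in Fertile vesicles (SD, n = 3 each), with a log2 ratio of means of -0.44. The groups of this sum did not overlap on the deposited scale, and overlapped as shares of the library, at 1.25% to 1.53% in Sub-fertile and 1.43% to 2.01% in Fertile libraries.

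In the miR-17 family nearly all of the signal was miR-93-5p, the middle hairpin of miR-106b/25. It stood at 4902, 4665 and 4069.9 in Sub-fertile replicates 1, 2 and 3, and at 3920.2, 4344 and 4451 in Fertile replicates 1, 2 and 3. The groups overlapped, with a log2 change of 0.10 (SE 0.17, limma adjusted p = 0.81). On the deposited scale, miR-93-5p was among the steadiest of all miRNAs tested. The root-mean-square (RMS) deviation of its log2 values from their own mean over the 6 libraries was 0.11, the 7th smallest of 234, against a median of 0.51. miR-25-3p followed at 0.21 (26th) and miR-92a-3p at 0.32 (58th). The median of 0.51 includes miRNAs at few counts, and the spread was not measured under other scalings. As a share of the library, the miR-17 family ran from 0.385% to 0.661% in Sub-fertile and from 0.399% to 0.439% in Fertile libraries.

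The other expressed members of the family varied more. miR-20a-5p, a close copy of miR-17-5p, was at 393.4, 143.0 and 186.2 in Sub-fertile replicates 1, 2 and 3, and at 154.6, 173.2 and 127.4 in Fertile replicates 1, 2 and 3. Only Sub-fertile replicate 1 lay well above the rest. Its log2 change was 0.54 (SE 0.39, limma adjusted p = 0.51), and 0.12 without that library (limma adjusted p = 0.84). miR-17-5p itself rested on 7, 9 and 8 counts in Sub-fertile and 18, 9 and 16 counts in Fertile replicates 1, 2 and 3. These correspond to 31.5 ± 15.6 and 26.2 ± 9.96 units (SD, n = 3 each), and the log2 change was 0.17 (SE 0.60, limma adjusted p = 0.88). Its sign turned without Sub-fertile replicate 1 (-0.13), Sub-fertile replicate 2 (-0.01) or Fertile replicate 2 (-0.07). miR-106b-5p had 2 counts over the Sub-fertile and 5 over the Fertile libraries, a ratio of 0.692 per unit of depth with an exact 95% counting interval of 0.0659 to 4.23.

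The miR-19 family, which carries much of the tumour-promoting activity of miR-17/92 in mouse lymphoma, was represented almost wholly by miR-19b-3p. Its values were 56.2, 89.9 and 128.8 in Sub-fertile replicates 1, 2 and 3, and 105.3, 85.6 and 90.4 in Fertile replicates 1, 2 and 3. The Sub-fertile libraries lay on both sides of the Fertile ones, with a log2 change of -0.11 (SE 0.38, limma adjusted p = 0.88) whose sign turned under plain CPM (0.0087). miR-19a-3p had 1 count over the Sub-fertile and 7 over the Fertile libraries (ratio 0.247, counting interval 0.00549 to 1.92). miR-18a-5p had 4 and 2 counts (ratio 3.46, counting interval 0.496 to 38.3). Neither difference was detectable at this depth.

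The balance between families and between strands was described by ratios. The miR-25/92a family exceeded the miR-17 family by 2.31-, 2.58- and 3.25-fold in Sub-fertile replicates 1, 2 and 3, against 5.03-, 3.70- and 3.26-fold in Fertile replicates 1, 2 and 3. Within the miR-106b/25 cluster, miR-93-5p over miR-25-3p was 1.10, 1.19 and 1.25 in Sub-fertile replicates 1, 2 and 3, and 0.813, 0.868 and 0.985 in Fertile replicates 1, 2 and 3. miR-93-5p was thus the higher of the 2 strands in 3 of 3 Sub-fertile libraries and the lower in 3 of 3 Fertile ones. Such ratios within a library do not depend on scaling. The groups did not overlap for 4 of 12 ratios computed among these strands and their relatives, against 25.7% of all ratios between 2 tested miRNAs. Of these 4, the family ratio was only just apart, at 3.253 in Sub-fertile replicate 3 and 3.258 in Fertile replicate 3. The ratios were chosen with values known and share strands. No test was made on them, except on the ratios between strands of 1 hairpin given below. miR-92a-3p over miR-20a-5p ran from 20.1 to 60.1 in Sub-fertile and from 67.9 to 102 in Fertile libraries. Both have a gene in the miR-17/92 cluster, but miR-92a-3p has a second copy in the cluster that starts with MIR106A.

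For miR-93 both strands are members. miR-93-3p was at 18.7, 16.3 and 20.9 in Sub-fertile replicates 1, 2 and 3, against 69.3, 31.1 and 53.3 in Fertile replicates 1, 2 and 3. The groups did not overlap, and this held under plain CPM, median-of-ratios scaling and quantile normalization. The Sub-fertile values rest on 3, 4 and 12 counts, the first at the floor, and the Fertile ones on 52, 16 and 23. The log2 change of -1.34 (SE 0.49) was the lowest among the 7 tested strands, and it did not pass (limma adjusted p = 0.17). The 5p strand exceeded the 3p strand by 262-, 285- and 195-fold in Sub-fertile replicates 1, 2 and 3, against 56.6-, 140- and 83.5-fold in Fertile replicates 1, 2 and 3. In a fit over 57 hairpins with both strands measured, the log2 change of this ratio was 1.44 (95% interval 0.51 to 2.38), and it did not pass (limma adjusted p = 0.080, unadjusted p = 0.0084). In that fit 7.02% of hairpins were called, and for 22.8% the groups did not overlap. The fit also held miR-25, with a log2 change of its 5p over 3p ratio of 1.66 (95% interval -0.07 to 3.40). This rested on few 5p counts and did not pass (limma adjusted p = 0.27). For miR-17 the change was 0.11 (limma adjusted p = 0.92). The groups of both ratios overlapped.

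**Figure D3:**
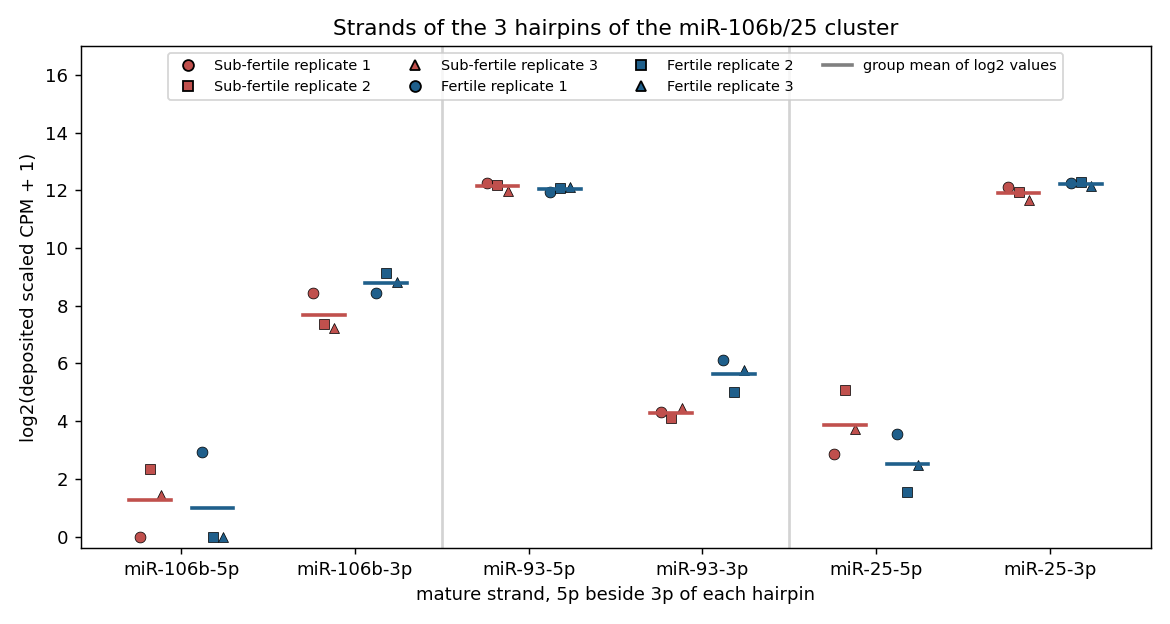
Points give log2(deposited scaled CPM + 1) of the 5p and 3p strands of miR-106b, miR-93 and miR-25 in each library, Sub-fertile left of Fertile, with a bar at the group mean of the log2 values. miR-93 is carried by its 5p strand and miR-25 and miR-106b by their 3p strands, and miR-93-3p is lower in the 3 Sub-fertile libraries.

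The strand kept differed along the miR-106b/25 cluster. miR-106b was present as its 3p strand, with 926 counts over the 6 libraries, against 7 counts for miR-106b-5p, the strand that belongs to the miR-17 family. Reads of miR-106b-5p counted under another miR-17 family member cannot be told apart here. miR-106b-3p was at 349.7, 163.4 and 149.6 in Sub-fertile replicates 1, 2 and 3, against 350.6, 556.7 and 451.8 in Fertile replicates 1, 2 and 3. Sub-fertile replicate 1 lay within 1 unit of the lowest Fertile library. The log2 change was -1.12 (SE 0.37, limma adjusted p = 0.13). Without Sub-fertile replicate 1 it was -1.50 and passed (limma adjusted p = 0.00040), in a fit that called 41 of 227 miRNAs. Under plain CPM and median-of-ratios scaling the groups overlapped. miR-25-5p, at 1 to 8 counts per library in both groups, had a log2 change of 1.35 (SE 0.95, limma adjusted p = 0.51). In miR-17/92 the 5p strand prevailed for miR-20a, with 465 against 3 counts, and the 3p strand for miR-19b, with 267 against 2. miR-92a-5p had 0 counts beside 31941 of miR-92a-3p, and miR-17 gave 67 counts of its 5p and 31 of its 3p strand. Of 10 such opposite strands listed, 3 passed the filter on low values and 0 passed the test; 3 were at 0 in every library.

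Over all strands, 0 of the 7 tested members passed the limma test at an adjusted p of 0.05, where 8 of 234 miRNAs (3.42%) did, 0.855% higher and 2.56% lower in Sub-fertile vesicles. Without Sub-fertile replicate 1, 41 of 227 miRNAs passed and again 0 members. At an unadjusted p under 0.05 there were 2 members, miR-92a-3p and miR-93-3p, against 19.2% of all miRNAs tested. miR-92a-3p was at the edge (limma unadjusted p = 0.0499), and missed it with a pseudocount of 0.1 (limma unadjusted p = 0.0512) or robust limma (unadjusted p = 0.0517). The groups did not overlap for 2 members, miR-25-3p and miR-93-3p, both lower in Sub-fertile vesicles, where 25.6% of all tested did not overlap, 9.4% higher and 16.2% lower. On recovered counts, edgeR called 0 members and 2.99% of all miRNAs tested, with 1 member and 20.9% of all at an unadjusted p under 0.05. DESeq2 called 0 members and 7.26% of all, with 0 members and 17.1% of all at an unadjusted p under 0.05. The median log2 change was -0.11 over the 7 members tested and -0.10 over all 234 miRNAs. Being 7 of 10, the tested members leave out the 3 lowest. A missed threshold does not show equal levels: the 95% intervals reached from -0.28 to 0.48 for miR-93-5p and from -0.72 to 0.10 for miR-25-3p, while for miR-17-5p, at few counts, they spanned -1.20 to 1.54.

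**Figure D4:**
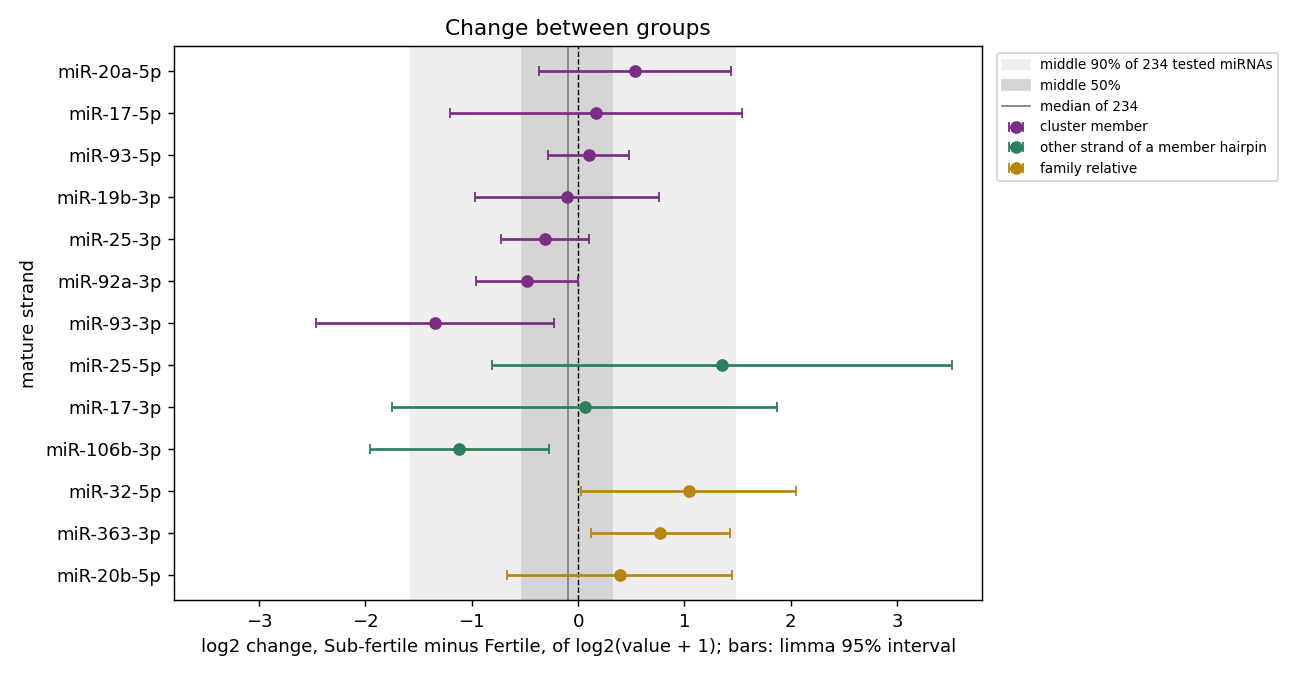
Log2 changes (Sub-fertile minus Fertile, of log2(value + 1)) with limma 95% intervals for the 7 tested members, 3 opposite strands and 3 family relatives; grey bands hold the middle 50% and 90% of the 234 miRNAs tested. Most points lie inside the bands, and miR-93-3p is the lowest member.

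Relatives of these families from other loci were measured too. Of 6 listed relatives, miR-106a-5p, miR-18b-5p and miR-367-3p were at 0 in every library, 3 passed the filter and 0 passed the test; miR-92b-3p was not analysed here. miR-363-3p, a miR-25/92a family strand from the cluster that starts with MIR106A, was at 468.3, 310.4 and 309.7 in Sub-fertile replicates 1, 2 and 3, and at 262.6, 173.2 and 196.9 in Fertile replicates 1, 2 and 3. Every Sub-fertile library lay above every Fertile one, with a log2 change of 0.77 (SE 0.28, limma adjusted p = 0.18). miR-32-5p, of the same seed family, was at 93.7, 40.8 and 73.1 in Sub-fertile and 34.7, 27.2 and 32.4 in Fertile replicates 1, 2 and 3. Its groups did not overlap either, with a log2 change of 1.04 (SE 0.44, limma adjusted p = 0.25). Both kept their groups apart under plain CPM, median-of-ratios scaling and quantile normalization. Of all miRNAs tested, 25.6% did not overlap, 9.4% being higher in Sub-fertile vesicles. miR-32-5p rests on 15, 10 and 42 counts in Sub-fertile and 26, 14 and 14 in Fertile replicates 1, 2 and 3. Without Sub-fertile replicate 1 the log2 change was 0.58 for miR-363-3p and 0.79 for miR-32-5p (limma adjusted p = 0.16 and 0.29). The difference between the changes of miR-363-3p and miR-32-5p and those of miR-25-3p and miR-92a-3p was not tested. miR-20b-5p, a miR-17 family strand from the same cluster, had a log2 change of 0.39 (SE 0.46, limma adjusted p = 0.70), which was -0.09 without Sub-fertile replicate 1.

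Profiles over the 6 libraries were compared by the RMS difference between log2 values, each profile centred on its own mean. The smallest difference among these strands was between miR-93-5p and miR-25-3p (0.23), the least variable of the members, whose low spread by itself keeps this difference small. Next came miR-20a-5p and miR-20b-5p (0.26), which lie in different clusters but differ by few bases, so shared reads between them were not tested. Their ratio ranged from 1.62 to 2.82 over all libraries. miR-20a-5p, miR-20b-5p, miR-363-3p and miR-32-5p each had their highest value in Sub-fertile replicate 1, the shallowest library. So did miR-17-5p, on 7 counts, and miR-93-5p, by a small margin on the deposited scale. miR-92a-3p and miR-19b-3p had their lowest value there. The part of that library in these profiles was measured only by leaving it out. Among the 227 tested miRNAs that are not members, the nearest profiles to miR-93-5p were miR-29c-3p (0.11), miR-21-5p (0.12) and miR-204-5p (0.14), where the median was 0.53. Being nearly flat on the deposited scale, the profile of miR-93-5p lies close to other flat profiles. The nearest to miR-92a-3p were miR-151-3p (0.11), miR-181a-5p (0.17) and miR-183-5p (0.17). For miR-19b-3p they were miR-509b-5p (0.12), miR-222-3p (0.12) and miR-509a-3p (0.14), and for miR-93-3p, which stands alone, miR-27b-3p (0.26), miR-30a-5p (0.35) and miR-502a-3p (0.39).

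**Figure D5:**
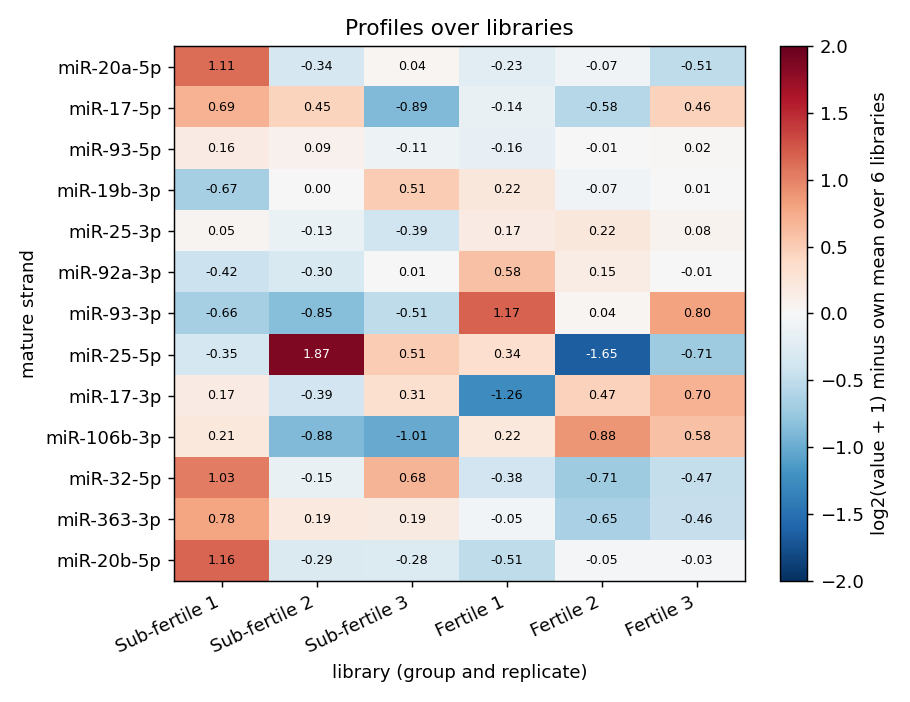
Heat map of log2(value + 1) minus the strand's own mean over the 6 libraries, for the 7 tested members, 3 opposite strands and 3 relatives, Sub-fertile libraries on the left. The row of miR-93-5p is close to 0 throughout. This strand, miR-17-5p, miR-20a-5p, miR-20b-5p, miR-363-3p and miR-32-5p are highest in Sub-fertile replicate 1.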

How the data were processed

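Small RNA of seminal plasma vesicles, isolated by ultracentrifugation and size exclusion chromatography per the labels' protocols, was sequenced from QIAseq miRNA libraries. The submitters' processing notes name Bowtie2 2.2.2, bcl2fastq and DESeq2 beside the build OryCun2.0, without saying what each did. The deposited signal, named CPM by the authors, gave whole counts for 100% of values when divided by a library's lowest value above 0 (largest distance from a whole number 1.46e-11). These counts were used as recovered counts, and the implied scaling factors equal edgeR's TMM factors on all 577 rows. The use of unique molecular identifiers in counting was not given in the sources used here; intervals on counts cover counting error only.

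The deposited values were tested without further scaling by limma 3.58.1 (R 4.3.3), two-sided, with a mean-variance trend on log2(value + 1), for the 234 miRNAs that reached a value of 10 in 3 or more of the 6 libraries. Adjusted p is by Benjamini-Hochberg over all 234. Counts were also tested with edgeR 4.0.16, which called 7 miRNAs, and DESeq2 1.42.0. The scripts were tested on simulated data. The p-values set the group difference against the spread between libraries of a group, as moderated over all miRNAs tested. Whether this is a spread between males is not stated in the labels. Pairs of libraries within a group differed beyond sampling noise, with a chi-square per degree of freedom of 23.1 or more.

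Seed families were taken from miRNA names, not from sequences. The members, lists and ratios were chosen with earlier results of these data known. Named miRNAs are the members, marker lists, their opposite strands, relatives fixed by name, and the 3 nearest profiles to the highest member of each family. Alternatives were other pseudocounts, filters, scalings, variance models, a replicate block and leaving out each library.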

Additional observations from a re-analysis of the deposited data

How the results depend on the processing

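None of the 7 tested members was called in any of 23 alternative settings, and miR-20a-5p, miR-92a-3p, miR-93-5p, miR-93-3p and miR-25-3p had 1 direction throughout the settings in which they were tested. Adjusted p reached down to 0.053 for miR-93-3p, 0.085 for miR-92a-3p and 0.082 for miR-25-3p. The number of miRNAs called over all tested was 8. It became 14 with a filter at 100, where 131 were tested, and 5 with quantile normalization. It was 1 for limma without a trend, 45 with array weights and 17 with DESeq2. The causes of these shifts were not tested. Leaving out 1 library gave 3 to 41: 3 without any 1 of the Fertile libraries, 41 without Sub-fertile replicate 1 and 5 without Sub-fertile replicate 2. With the replicate number as a block 0 were called (limma; 43 had an unadjusted p under 0.05). The deviations of libraries with the same number correlated at 0.045, -0.116 and 0.105. Deviations centred on 3 libraries per group cannot decide whether the numbers pair the libraries.

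Signs turned as follows. miR-19b-3p was at 0.0087 under plain CPM, 0.0064 with array weights, 0.094 with edgeR and 0.093 with DESeq2, and ran from -0.39 to 0.20 (without Sub-fertile replicate 1) with 1 library left out. miR-17-5p ran from -0.13 to 0.66 with 1 library left out, below 0 without Sub-fertile replicate 1 or 2 or Fertile replicate 2. miR-17-3p was at -0.021 with a pseudocount of 10, -0.016 with DESeq2, -0.21 with array weights, and between -0.55 and 0.43 with 1 library left out. miR-20b-5p ran from -0.090 (without Sub-fertile replicate 1) to 0.64. miR-106b-3p passed with array weights (-1.38) and without Sub-fertile replicate 1, settings that called 45 of 234 and 41 of 227 miRNAs.

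The arm ratio of miR-93 kept its direction and did not pass in 12 settings (1.14 to 1.78, limma adjusted p 0.056 to 0.216). The summed miR-17 family had a log2 ratio of 0.13, of 0.27 with plain CPM and of 0.05 to 0.21 with 1 library left out; that of the miR-25/92a family ran from -0.53 to -0.30. No ratio could be formed for miR-18a-5p without Fertile replicate 3. Over every miRNA tested, the median change was -0.10, and it was 0.02 with plain CPM and 0.07 with edgeR. Depth limits the strands below the filter, and among those tested miR-25-5p, miR-17-3p, miR-17-5p and miR-93-3p rest on 27, 31, 67 and 110 counts over the 6 libraries.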
